A study of Mus musculus with 12 samples.

Results

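YAP was activated in mouse hepatocytes in 2 ways, and 7 genes that came out differently in them are described here: Ntrk2, Lpl, Tmem51, Smpd3, Camk2b, Tlr12 and 1600002H07Rik. They are 7 of the 16116 gene symbols in the expression table, and all 7 were among the 10681 genes kept for testing, the limit being a log2 CPM of 1 reached by 2 or more libraries (CPM are reads scaled to a common library total). The genes were chosen by measured values, namely the difference in log2 CPM between hepatocytes expressing an active YAP and hepatocytes lacking Mst1 and Mst2. The values of that difference are therefore a description and carry no test, and the same holds for the change of each model from its own control.

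YAP is a transcriptional coactivator that has no DNA-binding domain of its own and works mainly through the TEAD transcription factors. The Hippo kinases MST1 and MST2 act through LATS kinases, which phosphorylate YAP on several serines and hold it in the cytoplasm. The YAP S127A protein lacks one of these serines, whereas loss of MST1 and MST2 removes kinases at the top of the cascade and acts on YAP, its relative TAZ and any other substrate. SOX9 is a transcription factor of bile duct cells that hepatocytes can switch on when YAP is active.

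The 7 genes belong to different processes. Ntrk2 encodes TrkB, the receptor tyrosine kinase for the neurotrophins BDNF and NT-4, and Tlr12 encodes an endosomal Toll-like receptor that takes part in sensing the profilin of Toxoplasma in mice. Lpl encodes lipoprotein lipase, which releases fatty acids from circulating triglyceride-rich lipoproteins and is low in adult hepatocytes. Smpd3 encodes neutral sphingomyelinase-2, which splits sphingomyelin into ceramide and phosphocholine. Camk2b encodes the beta subunit of calcium/calmodulin-dependent protein kinase II, and Tmem51 encodes a transmembrane protein of little-known function. RefSeq lists 1600002H07Rik as a synonym of Tedc2, which encodes a protein of the tubulin epsilon and delta complex of centrioles.

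The 12 libraries form 6 groups of 2, all from hepatocytes of mice injected at 3 weeks of age with adeno-associated virus (AAV2/8) whose cargo was driven by TBG, a hepatocyte promoter. In the YAP experiment, wild type mice given GFP alone (WT_GFP) were the control; Sox9 fl/+ mice (Sox9_het) and Sox9 fl/fl mice (Sox9_cko) received Cre together with YAP S127A-P2A-GFP, and cells were sorted 3 weeks later. In the other experiment the control (Mst1_2_fl_GFP) was given GFP and no Cre and was Mst1 fl/fl and Mst2 fl/fl with the Cre reporter ROSA26-lsl-TdTomato. Mice of that genotype that were also Sox9 fl/+ (DKO_Sox9_het) or Sox9 fl/fl (TKO_Sox9) received Cre, and cells were sorted 4 weeks after injection. Sorting took cells positive for GFP or TdTomato that lacked Epcam and CD45, and neither control received Cre. Below, the 4 libraries with YAP S127A are called YAP libraries and the 4 with Cre on the floxed Mst1 and Mst2 background are called Mst libraries; in each set, 2 carry a deletion of 1 Sox9 allele and 2 of both. The model, the sorted reporter, the floxed alleles and the time after injection change together between the experiments and cannot be told apart. Within each experiment, every activated group also differs from its control in having received Cre and in deleted Sox9 alleles, since neither control carried a floxed Sox9 allele. A change from control below, also when averaged over both models, therefore cannot be told apart from effects of Cre or of Sox9 allele loss.

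The panel reads 1 amplicon per gene, and where the amplicon lies was not given, so that isoforms such as full-length and truncated TrkB were not distinguished and levels are not compared between genes. In GRCm38 with GENCODE M21 all 7 genes are annotated as protein-coding. Ntrk2 spans 58806569 to 59133970 of chromosome 13 on the plus strand and Lpl 68880491 to 68907448 of chromosome 8 on the plus strand. On the minus strand lie Smpd3 (chromosome 8, 106252548 to 106337988), Camk2b (chromosome 11, 5969644 to 6066362), Tmem51 (chromosome 4, 142030992 to 142084304), Tlr12 (chromosome 4, 128615443 to 128618619) and 1600002H07Rik, as Tedc2 (chromosome 17, 24215054 to 24220851). The 7 genes thus lie on 5 chromosomes.

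RefSeq promoter sequences (GRCm38.p6) were matched for 5 of the 7: Ntrk2, Tmem51, Camk2b, Tlr12 and 1600002H07Rik. The 2 shown are those of the genes with every YAP library below and every Mst library above the controls. The stretch of Ntrk2 is chr13:58806319-58806471 on the plus strand (153 bases), and that of Tmem51 is chr4:142084305-142084454 on the minus strand (150 bases). The Tmem51 stretch overlaps exons of the antisense gene Tmem51os1. Capitals mark a match to the TEAD motif on either strand.
Ntrk2: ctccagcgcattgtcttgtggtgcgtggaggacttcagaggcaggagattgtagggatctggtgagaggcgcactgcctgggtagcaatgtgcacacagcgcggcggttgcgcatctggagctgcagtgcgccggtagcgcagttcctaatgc
Tmem51: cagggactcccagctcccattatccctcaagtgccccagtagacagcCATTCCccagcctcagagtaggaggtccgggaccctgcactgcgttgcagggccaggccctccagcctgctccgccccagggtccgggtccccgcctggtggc

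In the 250 bases before the start, searched on both strands, the TEAD letters GGAATG occurred once, in Tmem51. The first base of the match lay at -103 from the start of the GENCODE gene. In RefSeq the Tmem51 gene reaches farther, to 142084928, so the printed stretch and this match lie within that extent, not before it. The same letters occurred in 12.6% of 32851 promoters of that length. The SOX letters ACAAAG, found in 16.5% of all promoters, and the AP-1 letters TGANTCA, found in 6.75%, occurred in 0 of the 5. In RefSeq, Ntrk2 starts at 58806472 and 1600002H07Rik (as Tedc2) reaches 24220934, so part of the 250 bases searched for these genes lies within that extent. With a single match, no motif overlapped another, and a match or its absence describes only these letters.

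The largest separation was that of the neurotrophin receptor gene Ntrk2. Its log2 CPM was 4.94 and 3.34 in the wild type control, 2.90 and 1.95 in Sox9_het, 1.36 and 2.95 in Sox9_cko, 3.73 and 4.42 in the floxed control, 8.94 and 8.75 in DKO_Sox9_het and 8.67 and 8.24 in TKO_Sox9. Every YAP library lay below every control library and every Mst library above them. As group means (± SD of 2 libraries, here and below), the order from low to high was Sox9_cko (2.15 ± 1.13), Sox9_het (2.42 ± 0.67), the floxed control (4.07 ± 0.49), the wild type control (4.14 ± 1.13), TKO_Sox9 (8.45 ± 0.30) and DKO_Sox9_het (8.85 ± 0.14). The 2 YAP groups overlapped, as did the 2 controls, and DKO_Sox9_het lay above TKO_Sox9 by less than the SE of that difference (TKO_Sox9 minus DKO_Sox9_het, -0.40 ± 0.51). On the linear scale the geometric mean was 461 CPM in DKO_Sox9_het and 350 in TKO_Sox9, against 5.36 in Sox9_het and 4.44 in Sox9_cko. Measured from the control of its own experiment, Ntrk2 was -1.85 ± 0.44 (SE) log2 units in the YAP groups and 4.57 ± 0.44 in the Mst groups, a difference of 6.43 ± 0.63, or 86.0-fold. By size this ranked 1st of the 10681 genes.

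**Figure D1:**
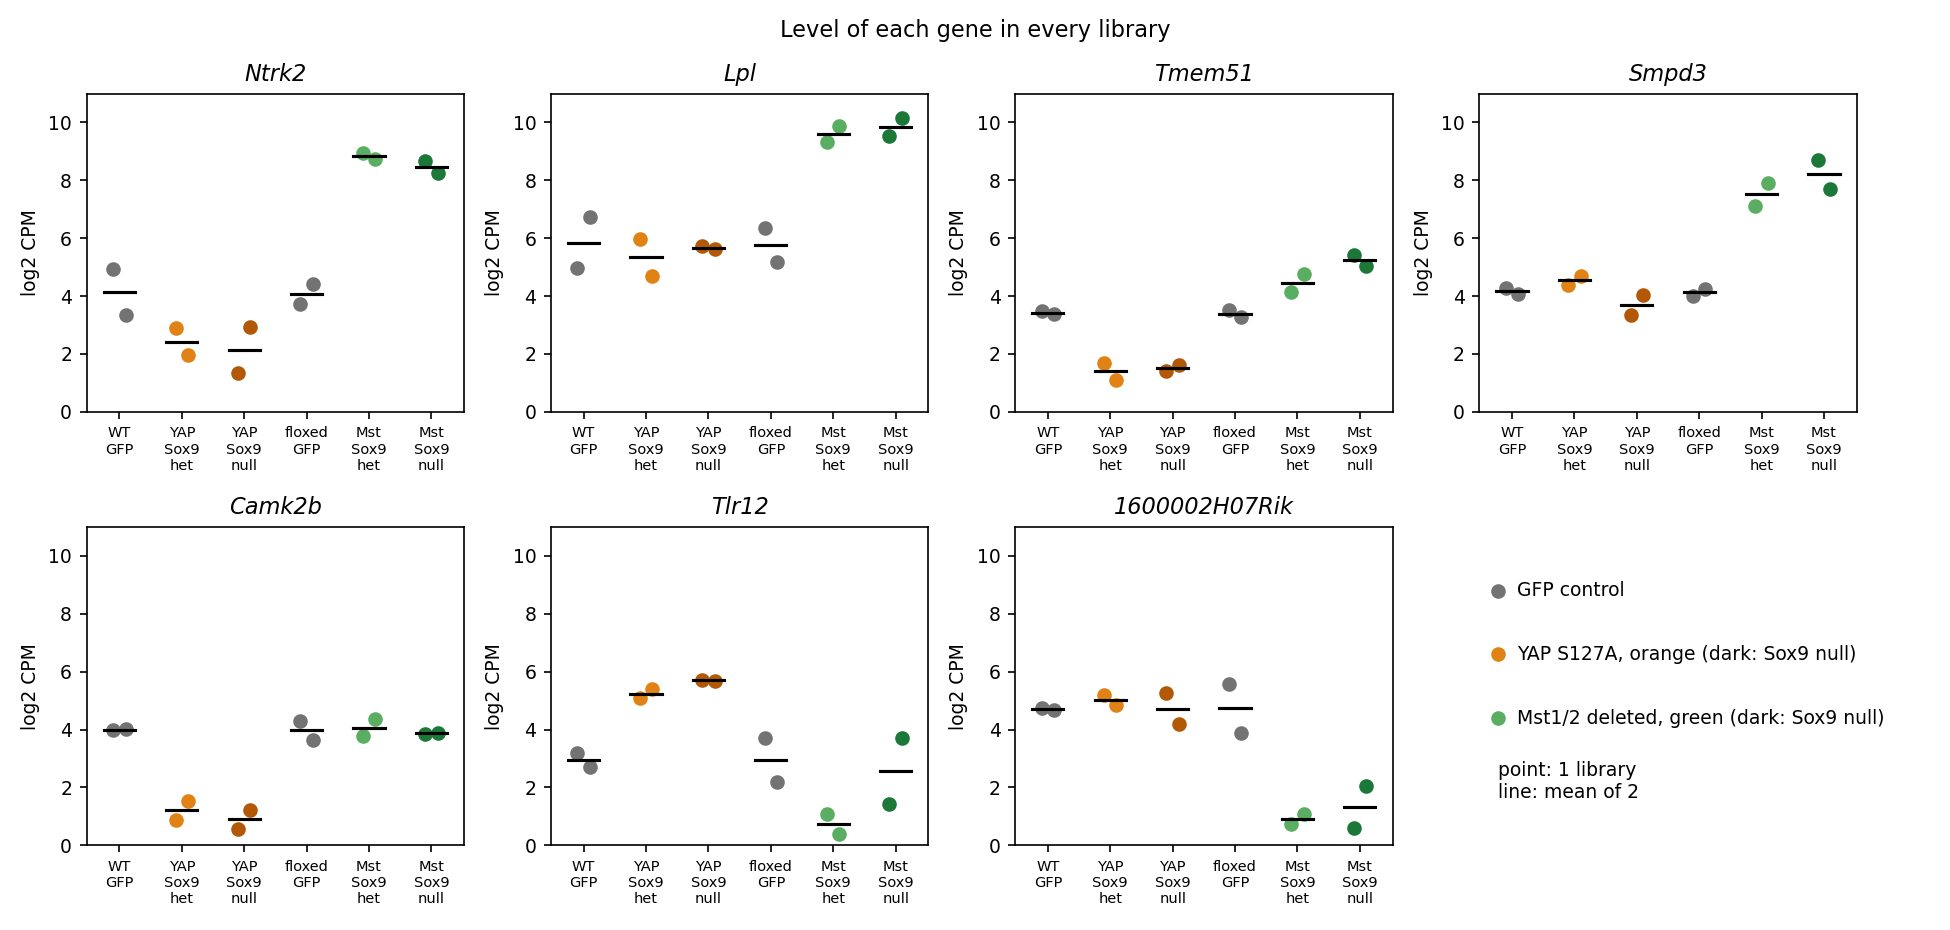
Log2 CPM of each of the 7 genes (1 panel each, log2 axis from 0 to 11) in the 6 groups; points are libraries and lines the mean of 2. Ntrk2 and Tmem51 lie below the controls in the YAP groups and above them in the Mst groups. Tlr12 lies above the controls in the YAP groups and below them in the Mst groups, except for library 2 of TKO_Sox9. Lpl, Smpd3, Camk2b and 1600002H07Rik leave the control range mainly in 1 of the models.

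The other receptor gene, Tlr12, was high where Ntrk2 was low. It measured 3.19 and 2.71 log2 CPM in the wild type control, 5.09 and 5.40 in Sox9_het and 5.73 and 5.67 in Sox9_cko. In the other experiment it measured 3.70 and 2.18 in the floxed control, 1.09 and 0.40 in DKO_Sox9_het and 1.42 and 3.72 in TKO_Sox9. The YAP libraries lay above all 4 controls, while of the Mst libraries only library 2 of TKO_Sox9 reached the controls, and it exceeded each of them. The order of the means was DKO_Sox9_het (0.75 ± 0.49), TKO_Sox9 (2.57 ± 1.63), the floxed control (2.94 ± 1.07), the wild type control (2.95 ± 0.34), Sox9_het (5.25 ± 0.22) and Sox9_cko (5.70 ± 0.04), and the second to the fourth of these did not differ beyond their spread. From its control, Tlr12 was 2.53 ± 0.50 in the YAP groups and -1.28 ± 0.50 in the Mst groups, and the Mst-minus-YAP difference was -3.81 ± 0.71 (14.0-fold). That difference was -4.49 ± 0.82 between groups with 1 Sox9 allele deleted and -3.12 ± 0.82 between groups with both deleted.

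The lipase and the sphingomyelinase shared another pattern: both stayed at control level in the YAP groups and were high in the Mst groups. For Lpl the control libraries ranged from 4.97 to 6.73, the YAP libraries measured 5.97 and 4.71 (Sox9_het) and 5.72 and 5.61 (Sox9_cko), and the Mst libraries measured 9.32 and 9.89 (DKO_Sox9_het) and 9.54 and 10.14 (TKO_Sox9). The 4 lower group means, from 5.34 ± 0.89 in Sox9_het to 5.85 ± 1.25 in the wild type control, did not differ beyond their spread, nor did the upper pair, DKO_Sox9_het (9.60 ± 0.41) and TKO_Sox9 (9.84 ± 0.42). In linear terms Lpl stood at 778 and 916 CPM in these 2 groups against 54.2 in their control. The difference from control was 3.96 ± 0.44 in the Mst groups (15.6-fold) and -0.34 ± 0.44 in the YAP groups.

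Smpd3 measured 4.29 and 4.07 in the wild type control, 4.38 and 4.70 in Sox9_het, 3.36 and 4.05 in Sox9_cko, 4.01 and 4.26 in the floxed control, 7.13 and 7.91 in DKO_Sox9_het and 8.71 and 7.71 in TKO_Sox9. All Mst libraries lay above all others, and the YAP libraries lay on both sides of the controls, with Sox9_het above all 4 of them. The means ran from 3.70 ± 0.49 (Sox9_cko) through the floxed control (4.14 ± 0.18), the wild type control (4.18 ± 0.16) and Sox9_het (4.54 ± 0.23) to DKO_Sox9_het (7.52 ± 0.55) and TKO_Sox9 (8.21 ± 0.71). The upper pair overlapped, as did the controls with each other and with Sox9_cko. Smpd3 was 3.73 ± 0.30 above its control in the Mst groups (13.2-fold) and -0.05 ± 0.30 from its control in the YAP groups.

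Camk2b, the kinase subunit gene, left the control level only in the YAP libraries. It measured 3.98 and 4.02 in the wild type control, 4.31 and 3.63 in the floxed control, 3.77 and 4.37 in DKO_Sox9_het and 3.84 and 3.89 in TKO_Sox9, all within 1 range. The YAP libraries measured 0.87 and 1.54 (Sox9_het) and 0.57 and 1.23 (Sox9_cko), below all others. Their means, 1.21 ± 0.48 and 0.90 ± 0.47, overlapped, and the other 4 means, from 3.87 ± 0.03 to 4.07 ± 0.42, did not differ beyond their spread. In the YAP groups Camk2b was -2.95 ± 0.31 from its control (7.72-fold lower). In the Mst experiment it was 0.10 ± 0.36 from control in DKO_Sox9_het and -0.10 ± 0.36 in TKO_Sox9.

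Tmem51 shared the pattern of Ntrk2 on a smaller scale. It measured 3.50 and 3.37 in the wild type control, 1.69 and 1.11 in Sox9_het, 1.40 and 1.63 in Sox9_cko, 3.53 and 3.27 in the floxed control, 4.14 and 4.77 in DKO_Sox9_het and 5.43 and 5.04 in TKO_Sox9. No library of 1 model overlapped the controls or the other model. The 2 YAP means (1.40 ± 0.41 and 1.52 ± 0.16) and the 2 control means (3.40 ± 0.19 and 3.43 ± 0.09) each lay within their spread, whereas the libraries of TKO_Sox9 (5.24 ± 0.28) lay above those of DKO_Sox9_het (4.45 ± 0.45). From control, Tmem51 was -1.97 ± 0.27 in the YAP groups (3.93-fold lower) and 1.44 ± 0.27 in the Mst groups (2.72-fold higher). The antisense gene Tmem51os1 lay between -0.30 and -0.06 in every library, under the limit for testing; the sources used here do not give whether counting used strand.

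The pattern of 1600002H07Rik was the mirror image of that of Lpl and Smpd3. It measured 4.76 and 4.67 in the wild type control, 5.20 and 4.86 in Sox9_het, 5.26 and 4.18 in Sox9_cko and 5.57 and 3.89 in the floxed control, but 0.75 and 1.08 in DKO_Sox9_het and 0.61 and 2.06 in TKO_Sox9. The 4 Mst libraries lay below the other 8, and the 2 Mst means (0.91 ± 0.23 and 1.34 ± 1.03) overlapped, as did the other 4, which lay between 4.72 and 5.03. It was -3.61 ± 0.45 from control in the Mst groups (12.2-fold lower) and 0.16 ± 0.45 in the YAP groups. The genes of the 2 tubulins in its complex's name, Tube1 and Tubd1, had group means of 0.68 to 1.35 and of 1.76 to 2.13, with Mst-minus-YAP differences of 0.07 ± 0.51 and 0.24 ± 0.46 (limma adjusted p = 0.991 and 0.956).

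Across the set, the Mst libraries lay above the YAP libraries for 5 genes and below them for 2, without overlap for any of the 7. Of all genes kept, 16.1% had no such overlap (8.6% with Mst above and 7.51% with Mst below), and since the choice of genes used this contrast nothing is read from the count. The narrowest gap between the 2 sets of libraries was 1.37 log2 units, in Tlr12, and the widest was 5.29, in Ntrk2. Ntrk2 and Tmem51 were 2 of 39 genes (0.365% of those kept) whose YAP libraries were below and Mst libraries above all 4 controls. The Mst-minus-YAP difference was of like size with 1 and with both Sox9 alleles deleted for Ntrk2 (6.49 and 6.36), Lpl (4.35 and 4.26), Camk2b (2.90 and 3.00), Tmem51 (3.08 and 3.75) and 1600002H07Rik (-4.13 and -3.40). For Smpd3 it was 3.01 and 4.55.

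**Figure D2:**
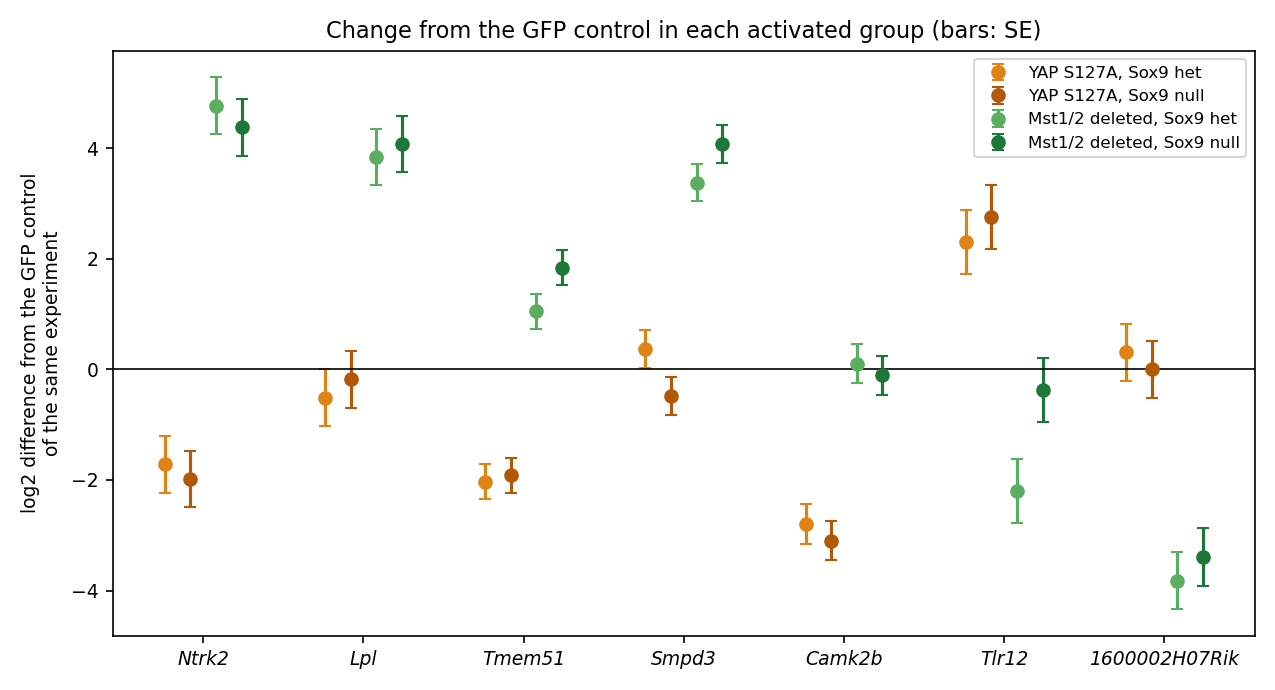
Log2 difference of each activated group from the GFP control of its own experiment (points, bars: SE) for the 7 genes, in order YAP S127A (orange) and Mst1/2 deletion (green), light with 1 and dark with both Sox9 alleles deleted. For Camk2b it is the YAP groups that lie far from the zero line, for Lpl, Smpd3 and 1600002H07Rik the Mst groups.

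One comparison was independent in its noise of the difference between models: the mean of the 4 activated groups against the mean of the 2 controls, tested with limma over all kept genes. A gene that moved in 1 model only must differ in this mean too, so that the following count describes the set and supports nothing about it. Lpl (1.81 ± 0.31, adjusted p = 9.53e-04), Smpd3 (1.84 ± 0.21, adjusted p = 1.96e-05) and Ntrk2 (1.36 ± 0.31, adjusted p = 0.00748) were higher. Camk2b (-1.47 ± 0.22, adjusted p = 2.26e-04) and 1600002H07Rik (-1.72 ± 0.32, adjusted p = 0.00147) were lower. Tmem51 (-0.26, 95% interval -0.68 to 0.15) and Tlr12 (0.62, interval -0.13 to 1.38) did not pass (adjusted p = 0.425 and 0.29), and the means of both lay on opposite sides of control in the 2 models. Thus 5 of 7 passed, against 13.8% of all genes (12.3% higher and 1.49% lower). Of the genes called, 1477 on the values as they are, the share higher was 89.2%; of those called under other scalings it was 67.0% with equal library medians and 66.4% after quantile normalization; the median of all genes was 0.13, -0.05 and -0.07 in turn.

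The call of Ntrk2, whose wild type control libraries stood at 4.94 and 3.34, ended with no filter on low values (adjusted p = 0.0621), with a robust prior variance (adjusted p = 0.0921) and without library 2 of the wild type control (0.96, adjusted p = 0.0724). Tlr12 passed without library 1 of TKO_Sox9 (0.91, adjusted p = 0.0292).

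Loss of the second Sox9 allele moved none of the 7 past the test. Averaged over both models, Sox9-null minus Sox9-heterozygous groups gave 0 of 7 genes past the limma test, where 0.131% of all genes passed and 1 of the 7 had an unadjusted p under 0.05. That gene was Tlr12, which was 1.14 ± 0.41 higher (95% interval 0.27 to 2.01, adjusted p = 0.397). The intervals of the other 6 ran from -1.10 to 1.05 in all. Sox9 itself, the deleted gene, fell by 3.64 ± 0.27 (adjusted p = 2.99e-06).

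Taken within each model, the comparisons share their libraries with the choice of genes. Under YAP S127A 0 of 7 passed (0.169% of all genes), and 1 had an unadjusted p under 0.05: Smpd3 at -0.84 ± 0.34. Under Mst1/2 deletion 0 of 7 passed (0.0468% of all genes), and 2 had an unadjusted p under 0.05: Tlr12 at 1.82 ± 0.58 (adjusted p = 0.597) and Tmem51 at 0.79 ± 0.32. The Tlr12 value rests on the 2 unlike TKO_Sox9 libraries: without library 1 it was 2.98 (adjusted p = 0.0412) and without library 2 it was 0.67. For Smpd3 the values in the 2 models had opposite signs (-0.84 and 0.69). Leaving out 1 library moved them to between -1.19 (without library 2 of Sox9_cko) and -0.49 (without library 1 of Sox9_cko), and to between 0.19 (without library 1 of TKO_Sox9) and 1.20 (without library 2 of TKO_Sox9). The difference between them was 1.53 ± 0.48 (95% interval 0.50 to 2.57, unadjusted p = 0.00618, limma adjusted p = 1). No gene of the 10681 passed that last test, and 1 of the 7 had an unadjusted p under 0.05.

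**Figure D3:**
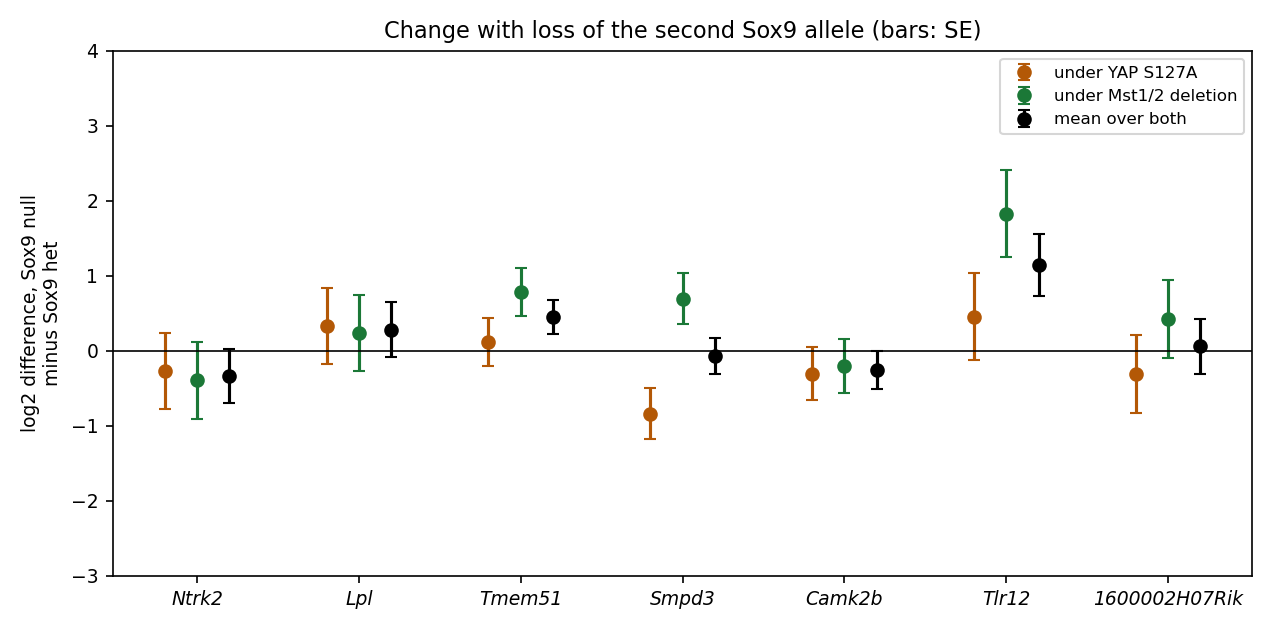
Log2 difference between Sox9-null and Sox9-heterozygous groups (points, bars: SE) for the 7 genes under YAP S127A (orange), under Mst1/2 deletion (green) and as the mean of both (black). Tlr12 under Mst1/2 deletion, at 1.82, is farthest from zero, and Smpd3 lies below zero in 1 model and above it in the other.

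The genes that work with each of the 7 were followed as lists, without the 7 themselves. In 5 lists with 88 genes kept, 1 gene passed the limma test of the difference between models, against 0.403% of all genes (a share that includes the chosen 7), 17 were changed over both models (all higher, where 12.3% of all genes were called higher) and 0 changed with Sox9 loss. That gene was Shc2, an adaptor that binds activated Trk receptors, in the neurotrophin list. It measured 3.06 and 3.06 in the wild type control, 3.12 and 3.56 in Sox9_het, 4.16 and 4.27 in Sox9_cko, 3.02 and 3.09 in the floxed control, 4.96 and 5.53 in DKO_Sox9_het and 6.44 and 5.78 in TKO_Sox9. Unlike Ntrk2 it lay above the controls in both models, by 0.72 in the YAP groups and 2.62 in the Mst groups, a difference of 1.90 ± 0.35 (adjusted p = 0.0275). This call was lost in 10 of 21 alternatives, and 8 of these 10 left out 1 library.

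Neurotrophin genes that were higher over both models included Shc2 (1.67 ± 0.18, adjusted p = 8.63e-06) and Ngfrap1, whose product binds the p75 neurotrophin receptor (1.67 ± 0.31, adjusted p = 0.00146). The median of the 10 genes kept in this list was 0.21, against 0.13 over all genes.

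In the lipoprotein lipase list, 6 of 25 were higher over both models (12.3% of all genes were) and 0 differed between them. The fatty acid transporter gene Cd36 rose by 3.01 ± 0.28 (adjusted p = 2.12e-06), in the YAP groups by 2.99 and in the Mst groups by 3.03. Gpihbp1, which anchors the lipase on capillary endothelium, rose by 2.45 ± 0.34 (adjusted p = 1.29e-04), and the fatty acid binding protein gene Fabp4 by 1.48 ± 0.31 (adjusted p = 0.00391). The lysosomal lipase gene Lipa (0.75), Pparg (0.70) and the lipase maturation gene Lmf2 (0.56) also passed, but none of the 3 did so with library medians equalised. The list's median was 0.16.

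In the sphingomyelin and ceramide list, 4 of 24 were higher over both models, near the 12.3% of all genes, and 0 differed between them. They were the ceramidase gene Acer2 (1.57 ± 0.26, adjusted p = 5.59e-04), the ceramide kinase gene Cerk (0.95), the serine palmitoyltransferase subunit gene Sptlc2 (0.66) and the ceramide synthase gene Cers6 (0.55), with a list median of 0.28. Of the calmodulin and CaM kinase list 1 of 12 was higher, Camk1 (0.90 ± 0.20, adjusted p = 0.00642; list median 0.22), and of the Toll-like receptor list 3 of 17: the co-receptor gene Cd14 (1.22 ± 0.22, adjusted p = 0.00138), Tlr2 (0.79) and the kinase gene Irak4 (0.55; list median 0.13). These shares too lie near the 12.3% of all genes. With library medians equalised Cerk, Cers6, Tlr2 and Irak4 no longer passed, and Camk1 did not without library 2 of the wild type control (adjusted p = 0.0538). Lists other than that of the neurotrophins held 0 genes that passed the test between models, with 1, 1, 2 and 2 genes under an unadjusted p of 0.05 in the order given here.

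The direct targets of YAP and TAZ were mostly higher over both models. Of 20 kept, 15 were higher over both models and 0 lower, led by Ctgf (5.53 ± 0.21, adjusted p = 4.31e-10), Ajuba (2.89 ± 0.17) and Cyr61 (2.51 ± 0.26), with a list median of 1.20. Ctgf was 4.51 above control in the YAP groups and 6.55 in the Mst groups. In the test between models 0 of the 20 passed and 5 had an unadjusted p under 0.05. Ctgf came nearest to the limit, with a difference of 2.05 ± 0.43 (limma adjusted p = 0.0541).

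**Figure D4:**
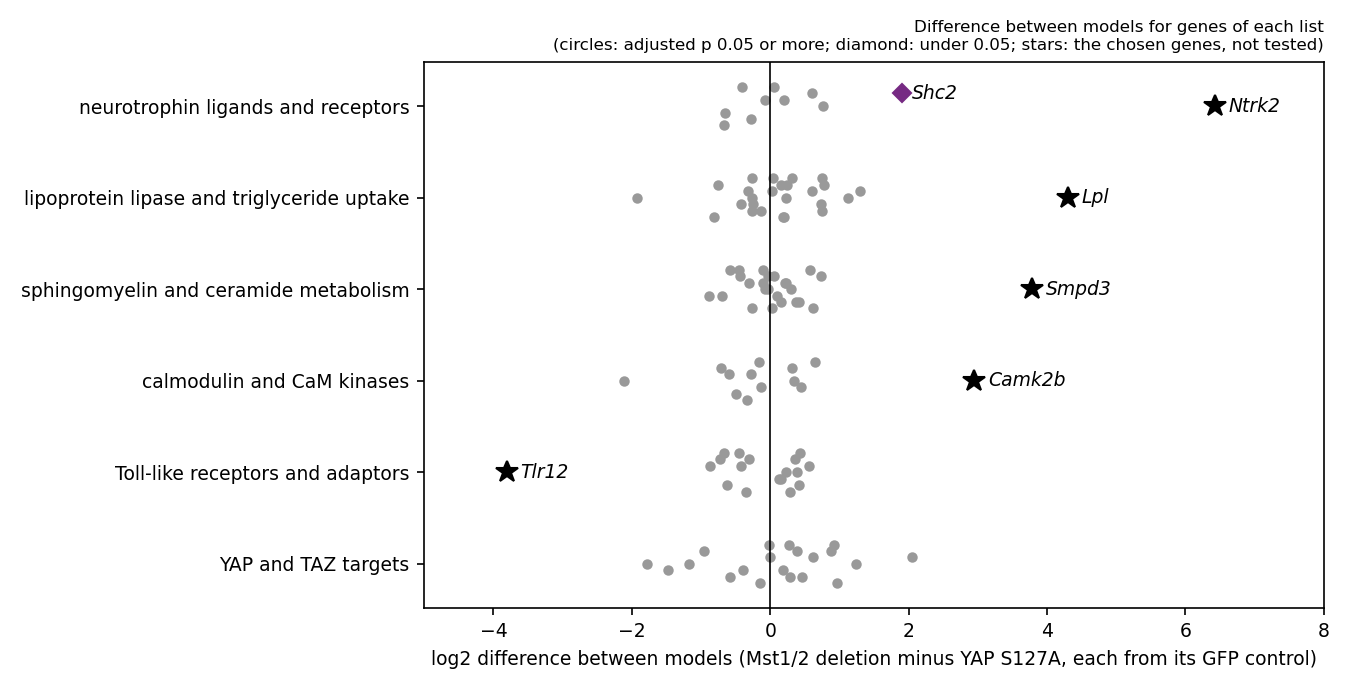
Log2 difference between models (Mst1/2 deletion minus YAP S127A, each from its control) of every kept gene in 6 lists; circles did not pass the limma test, the diamond (Shc2, 1.90) did, and stars are the chosen genes, which were not tested. Lists lie mostly between -2 and 2, with the stars beyond.

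The summed CPM of 8 hepatocyte markers, to which albumin (Alb) adds most, ran from 57838 to 91300 and overlapped between all groups, but 2 of the 8 were lower over both models, Ttr (-1.11 ± 0.26, adjusted p = 0.00755) and Tat (-1.03 ± 0.31, adjusted p = 0.0378), a call that Tat lost in 8 of the 12 omissions of a library and Ttr in 1. Cyp3a11 was -1.67 from control in the YAP groups and 0.81 in the Mst groups (difference 2.48, adjusted p = 0.484). Summed markers of other cell types were unequal. The summed CPM of 12 endothelial markers (11 kept for testing) was 30.6 to 57.4 in the controls. It was 102 to 267 in the YAP libraries and 289 to 389 in the Mst libraries, higher in every Mst library than in any YAP library. Of these markers Emcn was at or under 0.57 log2 CPM throughout, and 8 of the 11 kept were higher over both models. For 12 stellate cell and fibroblast markers (7 kept) the ranges were 38.6 to 52.4, 38.8 to 75.7 and 67.2 to 105, with Hhip and Ngfr below 0 in every library. Of the 7 kept, 2 were higher over both models, Dcn and Rgs5. Reln went the other way, at -0.78 from control in the YAP groups and -1.04 in the Mst groups (activation over both models, limma adjusted p = 0.0615). For 10 cholangiocyte markers (6 kept) the ranges were 503 to 603, 1664 to 2850 and 3649 to 4677. Spp1 and Tm4sf4 add most to these sums, and their log2 CPM in the controls was already 6.78 to 8.16 and 7.97 to 8.53. Of the 6 kept, 4 were higher over both models. In every library Krt7 was at or under 0.03, and Cftr and Ggt1 were below 0. In the Mst libraries Krt19 was at or under 0.08 and Epcam at or under 1.05. The 12 macrophage markers (11 kept) overlapped more, at 25.6 to 85.1 in the controls, 52.7 to 106 in the YAP libraries and 51.2 to 342 in the Mst libraries.

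Lpl and Cd36 are expressed by macrophages and by other cells of the liver as well, and Gpihbp1 by endothelium. The macrophage sum was 51.2 and 158 in libraries 1 and 2 of DKO_Sox9_het, where Lpl was 9.32 and 9.89. In libraries 1 and 2 of TKO_Sox9 the sum was 342 and 79.8, and Lpl was 9.54 and 10.14. The part of endothelial, stellate and macrophage RNA in the differences of the 7 genes was not tested, and in bulk libraries fewer cells of a type and less RNA per cell cannot be told apart. No marker of these lists passed the test between models. Of 5 adipocyte markers, Plin1, Cidea, Lep and Cfd were below 0 in every library, whereas Fabp4, given above among the genes that rose, reached 3.29; those of T and NK cells and of neutrophils included 0 genes kept for testing. Epcam, against which cells were sorted, averaged 2.64 in Sox9_het and 1.72 in Sox9_cko but 0.83 to 0.94 in the other groups.

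**Figure D5:**
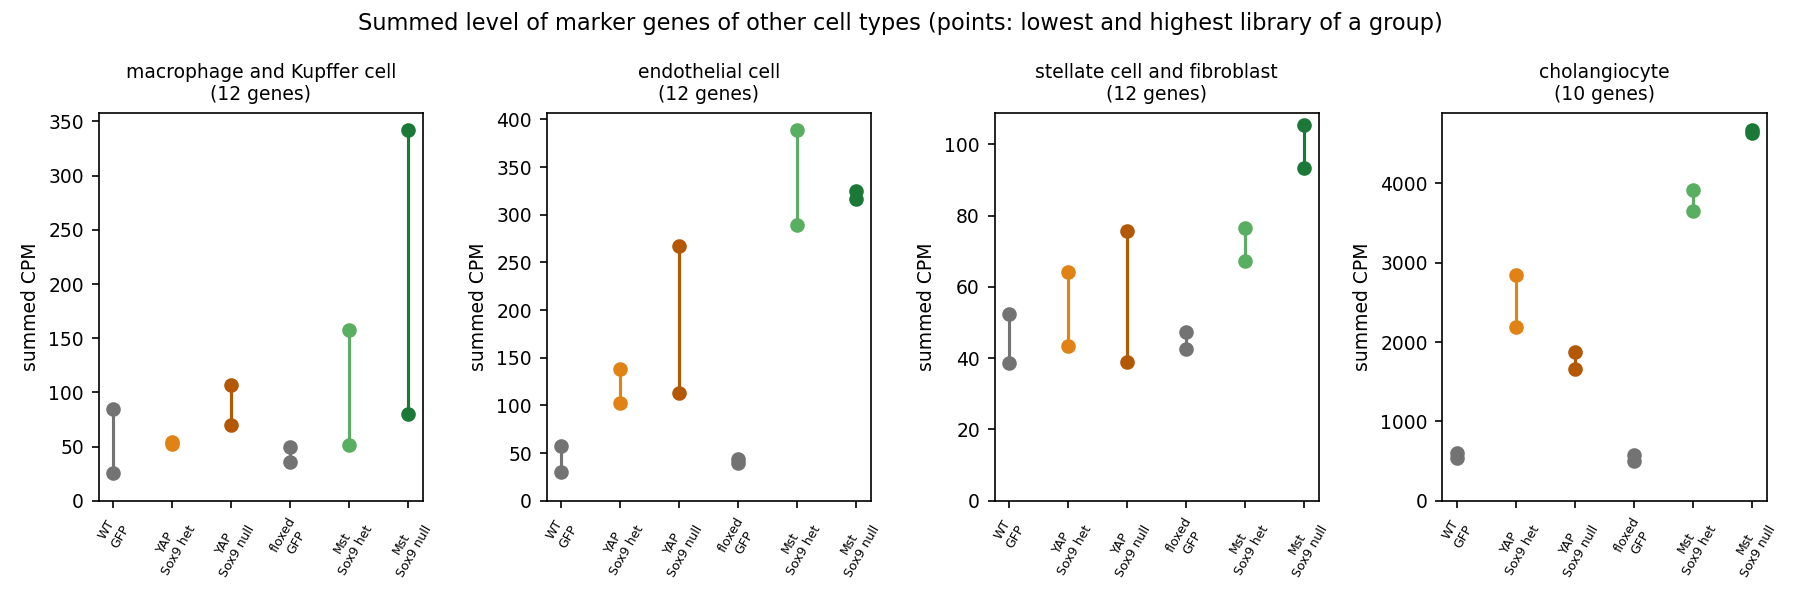
Summed CPM (linear axis from 0) of marker genes of 4 other cell types in the 6 groups; points joined by a line are the lowest and highest library of a group. Endothelial and cholangiocyte sums rise from the controls through the YAP groups to the Mst groups, and the macrophage sum is highest, at 342, in 1 library of TKO_Sox9.

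Each gene's nearest companions over the 12 libraries were sought among 7311 genes with a group mean of at least 4, by Pearson correlation, as a description that shares libraries, scaling and the groups themselves. Those of Ntrk2 were Tssc1 (r = 0.957), Cib3 (0.957) and Agpat5 (0.951), and those of Lpl were Ccdc122 (0.980), 1500011K16Rik (0.976) and Tmem141 (0.970). Tmem51 was closest to Fam131c (0.975), Acp6 (0.952) and Tmod3 (0.950), and Smpd3 to Bok (0.962), Rack1 (0.956) and Epb41l1 (0.948). Camk2b was closest to Chd1 (0.937), Amy1 (0.934) and Dad1 (0.932), Tlr12 to Gtf2h1 (0.920), Zfand6 (0.907) and Sirt7 (0.897), and 1600002H07Rik to Rab7 (0.981), Ncald (0.961) and Nkiras1 (0.947). Most companions covered a far smaller range than the gene they followed: Tssc1 differed by 0.91 between models where Ntrk2 differed by 6.43, and Rab7 by -0.23 where 1600002H07Rik differed by -3.77. Among the 7 themselves, the correlation was highest in size between Smpd3 and 1600002H07Rik (-0.943) and lowest between Camk2b and 1600002H07Rik (-0.485).

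The 2 libraries of a group correlated at r = 0.953 to 0.982, and their read depth is unknown because the values used are log2 CPM. The labels leave unstated whether both libraries of 1 group stem from different animals, so the p-values measure the spread between libraries, which may be technical. The targeted genes behaved unevenly: Sox9 averaged 4.84 and 6.23 in the heterozygous groups and 2.45 and 1.35 in the null groups, Yap1 was 1.05 ± 0.21 above control in the YAP groups (adjusted p = 0.0057), and Stk4 (Mst1) and Stk3 (Mst2) were -0.46 ± 0.22 and 0.27 ± 0.24 from control in the Mst groups (adjusted p = 0.241 and 0.598). Since the place of their amplicons relative to the deleted exons was not given, the last 2 values do not check the deletion.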

How the data were processed

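RNA of sorted hepatocytes was read with the Ion AmpliSeq mouse transcriptome panel, 1 amplicon per gene, per the labels' protocols. The authors deposited log2 CPM for 16116 gene symbols in 12 libraries; aligner, counting tool, genome build and later adjustments: not given in the sources used here. This deposited table shows adjustment: the means of the 2 controls were equal gene by gene (median difference 0.0085, 98.9% of kept genes within 0.05), and in 16080 genes each library's distance from its group mean was a whole multiple of 1 step (tolerance 2e-06) and carried 1 factor per gene (median 1.58; 2.15 for Ntrk2, 2.21 for Lpl, 0.847 for 1600002H07Rik). The controls therefore give no independent comparison with each other, and the SDs and SEs are those of the rescaled values (median SD 0.288, against 0.187 before rescaling). The factors and the 0.187 rest on an assumed step, the same for all genes, before rescaling. The linear values summed to 879620 to 920020 in the controls and to 938683 to 1011693 in the activated libraries.

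A gene was kept if 2 or more libraries reached a log2 of 1 (10681 genes). Differences were fitted on the deposited log2 values in R 4.3.3 (limma 3.58.1, trended prior variance), with 6 group means sharing 1 spread; calls are two-sided with Benjamini-Hochberg adjusted p under 0.05 over all kept genes. Samples were grouped by their titles. The script was tested on simulated data. Genes named are the 7, for each the 3 kept genes of highest Pearson r with a group mean of at least 4, list genes called in a tested comparison (up to 4 by size per list; Lmf2 and Pparg are given beyond that), and cell markers that bear on the 7. One list gene is not reported here. The 7 genes and the lists were chosen with earlier results of these data known. Promoters were read from RefSeq tables (GRCm38.p6) and positions from GENCODE M21. Alternatives were other filters, library medians equalised, quantile normalization, other prior variances, a replicate block and leaving out each library.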

Additional observations from a re-analysis of the deposited data

Results flagged for a closer look

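Ntrk2 had every YAP library below and every Mst library above the control of its experiment, and its Mst-minus-YAP difference was 6.43 log2 units. The same was so for Tmem51, with a difference of 3.42. For both genes the difference was not tested, since it chose them. Shc2 differed between the models by 1.90 in the limma test of the difference itself (adjusted p = 0.0275), with all 4 Mst libraries above the 4 YAP libraries, and this call was lost in 10 of 21 alternatives.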

How the results depend on the processing

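Over the alternatives, 0 values reversed direction on a called result. With no library left out, 4 or 5 of the 7 genes passed in activation over both models, 4 with no filter on low values and 4 with a robust prior variance. Counts of genes called were 1477 for activation, 14 for Sox9 loss over both models, 18 under YAP S127A, 5 under Mst1/2 deletion, 0 for the difference of Sox9 loss and 43 between models, which include the 7 genes chosen on that difference. With no filter on low values, Sox9 loss gave 5, 5 and 2 calls (both models, YAP S127A, Mst1/2 deletion) and the models 8. Without a trend in the prior variance, Sox9 loss gave 8 calls over both models and 6 under YAP S127A, and the models 16. With a robust prior, Sox9 loss gave 36 over both models and its difference 2. The replicate block gave 41 for Sox9 loss over both models, 39 under YAP S127A and 5 for its difference; same-numbered libraries did not deviate together in the YAP experiment (correlations -0.117 to -0.063). In the other experiment the means of first and second libraries were equal gene by gene in the table (median difference 0.0051, against 0.168 in the YAP experiment), which makes such correlations negative by itself (-0.644 to -0.315), so that whether the numbers pair the libraries could not be checked there. With the block 5 of the 7 passed in activation. Chosen after seeing the data, deviations before the rescaling, with its assumed step, gave 3845 for activation, 814, 466 and 181 for Sox9 loss, 58 for its difference and 783 between models, and 5 of the 7 in activation. The difference between models without subtracting controls gave 1347. The causes were not tested. Leaving out 1 library gave 979 (without library 1 of the floxed control) to 1953 (without library 2 of Sox9_het) calls for activation, 6 to 115 for Sox9 loss over both models, 4 to 128 under YAP S127A, 3 to 20 under Mst1/2 deletion, 0 to 18 for its difference and 13 to 50 between models; among the 7, 4 to 6 passed in activation and 0 to 1 for Sox9 loss under Mst1/2 deletion. Without library 1 or 2 of the wild type control, the Mst-minus-YAP difference was 5.63 or 7.22 for Ntrk2 and 5.19 or 3.42 for Lpl; without library 1 or 2 of the floxed control it was -2.92 or -4.61 for 1600002H07Rik. Of 52 listed genes, 24 lost a call in at least 1 alternative. Depth is unknown, so no counting error could be set beside the low values of Camk2b, Tlr12 and 1600002H07Rik.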

Other observations

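Among genes other than the 7, for which that contrast carries no test, 36 passed the limma test between models, 24 higher and 12 lower in the Mst groups. The genes given here were chosen after their values were seen. How each of their calls fared under the alternatives is not given, and fewer genes were called between models with no filter on low values or without a trend in the prior variance. By group means, Fam171b lay on the same sides of control as Ntrk2, at -3.50 in the YAP groups and 1.84 in the Mst groups (difference 5.34 ± 0.61, adjusted p = 5.62e-04). The highest group mean of Fam171b was only 3.26 log2 CPM. So did the means of the immediate early gene Egr1 (-1.77 in the YAP groups and above control in the Mst groups, difference 2.78 ± 0.36, adjusted p = 0.00203). The same held for the stress-induced cytokine gene Gdf15 (-1.09 and 1.97, difference 3.05 ± 0.55, adjusted p = 0.0252). Whether every library of these genes lay on those sides is not given. The glutamate transporter gene Slc1a2 (-2.51 and -6.07; -3.56 ± 0.58, adjusted p = 0.0113) and the ornithine aminotransferase gene Oat (-1.78 and -5.19; -3.41 ± 0.61, adjusted p = 0.0247), both of pericentral hepatocytes, were lower than control in both models and lower in the Mst groups. The oxysterol hydroxylase gene Cyp39a1 was 2.34 in the YAP groups and -0.34 in the Mst groups (-2.68 ± 0.32, adjusted p = 7.02e-04). The Wnt pathway scaffold gene Axin1 was 0.59 and -2.25 (-2.84 ± 0.45, adjusted p = 0.00889). The phosphatidate phosphatase gene Lpin1, which acts in triglyceride synthesis, was -0.28 and -2.84 (-2.56 ± 0.47, adjusted p = 0.0275). A link to the lipase gene Lpl, which was high in the Mst groups, was not tested.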
